A study of Mus musculus with 6 samples.

Results

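The cytochrome P450 genes (Cyp genes) of mouse skin were followed across 6 RNA sequencing libraries of whole skin, 3 of JunBΔep and 3 of control mice. A gene was counted as a P450 gene when its symbol consisted of Cyp, a family number, a subfamily letter and a gene number, pseudogenes included, which selected 102 of the 23951 genes in the table. P450 genes with other symbol forms, such as Cyp51, Tbxas1 and Ptgis, were not selected and are counted with the partner genes. The mice were C57Bl/6 littermates aged 6 to 7 months. The JunBΔep group carries the label JunB dep and lacks the AP-1 subunit JunB in cells that express keratin 5 through K5-Cre, so that dermal, fat, muscle and blood-derived cells of the same sample keep the gene. The control group carries the label JunB +/+. The paper describes the JunBΔep skin as lesional. Libraries are named by genotype and by the replicate number 0, 1 or 2 of their labels, which names a library and pairs none.

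P450 enzymes are heme proteins that insert an oxygen atom into lipids, steroids, vitamins and foreign compounds. Most sit in the endoplasmic reticulum and take electrons from P450 oxidoreductase (Por), and those in mitochondria take them from ferredoxin (Fdx1). In mice, families 1 to 4 mostly handle foreign compounds and fatty acids and are most abundant in liver, whereas families 11 to 27 make or break down steroids, bile acids, vitamin D and retinoic acid. Skin holds a smaller set, in which members of families 2, 4 and 26 serve the barrier lipids, the epoxidation of arachidonic acid and the removal of retinoic acid.

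Values are FPKM (fragments per kilobase of transcript, scaled to the sequenced fragments of the library), which are per length and can be compared between genes. Read numbers are unknown, so counting intervals are not given. Where the table has a 0 the gene is called listed at 0, since a 0 can be a failed estimate. Junb itself had 59.3, 72.4 and 56.9 FPKM in the control libraries (replicates 0, 1 and 2). JunBΔep replicate 1 had 42.8 FPKM and JunBΔep replicate 2 had 28.1 FPKM, whereas the library labelled JunBΔep replicate 0 had 129.6 FPKM. Thus Junb lay below every control in 2 of the 3 JunBΔep libraries and above every control in the other. The libraries also differed in tissue markers. Of 15 hepatocyte markers that are no P450 genes, all 15 were highest in control replicate 0, with a sum of 2913 FPKM against 3.70 to 53.6 FPKM elsewhere. The sum of 5 mucosal epithelium markers was 3798 FPKM in JunBΔep replicate 0 and at most 1.41 FPKM elsewhere, and Krt14 was listed at 0 there beside Krt5 at 3725 FPKM. The sum of 7 adipocyte markers ran from 68.7 FPKM in JunBΔep replicate 0 to 14979 FPKM in JunBΔep replicate 2. Skeletal muscle separated the groups, since all 5 of its markers were lower in every JunBΔep library than in any control (sums of 1340 to 3213 FPKM against 13930 to 17853 FPKM; 4 of 5 passed the limma test). Xist was at 27.6 to 34.2 FPKM in control replicate 1 and JunBΔep replicates 1 and 2, and at or below 0.0274 FPKM in the other 3 libraries, whose Ddx3y was at 5.51 to 6.40 FPKM, so both groups held both patterns, with 2 of 3 controls and 1 of 3 JunBΔep libraries of the latter kind. In bulk skin, fewer cells of a type and less RNA per cell cannot be told apart.

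The 102 genes fell into distinct ranges of expression. In all 6 libraries 20 genes were above 1 FPKM, in 2 to 5 libraries 12 genes, and in a single library 29 genes. Another 31 genes were above 0 and never above 1 FPKM, and 10 were listed at 0 in every library (Cyp11b1, Cyp19a1, Cyp2a22, Cyp2c39, Cyp2c53-ps, Cyp3a41a, Cyp3a41b, Cyp4a29, Cyp4a30b and Cyp4x1). Next to the limit, the lowest value of Cyp4f18 was 1.08 FPKM, which kept it among the 20, and the lowest value of Cyp2j9 was 0.954 FPKM, which left it out. The number of genes above 1 FPKM was 54, 30 and 32 in the controls (replicates 0, 1 and 2) and 23, 26 and 30 in JunBΔep skin (in the same order, which is kept below). Of the 92 genes above 0 in any library, 46 had their highest level in control replicate 0, 13 in JunBΔep replicate 2 and 11 in JunBΔep replicate 0. The summed P450 level was 618.1, 396.2 and 430.9 FPKM in the controls and 214.7, 253.5 and 634.9 FPKM in JunBΔep skin, so that the highest sum of all belonged to JunBΔep replicate 2 and the groups overlapped. A single gene, Cyp2e1, contributed 282.0 FPKM to that highest sum.

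**Figure D1:**
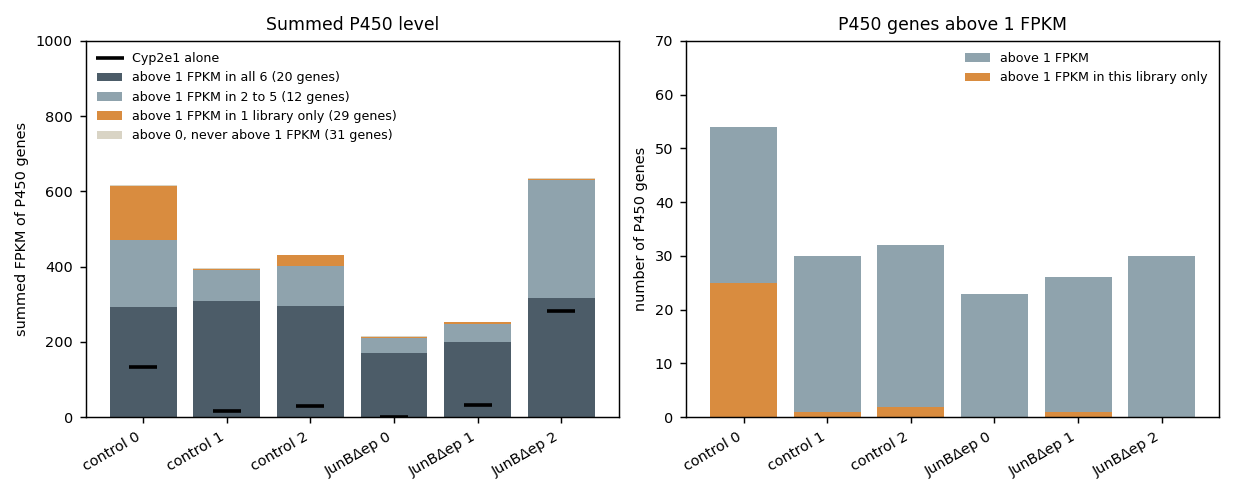
Left, summed FPKM of the P450 genes in each of the 6 libraries, stacked by the number of libraries in which a gene exceeds 1 FPKM, with a black dash for Cyp2e1 alone. Right, number of P450 genes above 1 FPKM per library (grey) and the part above 1 FPKM in that library only (orange), which is 25 in control replicate 0 and at most 2 elsewhere.

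The 20 genes above 1 FPKM in every library came from 10 families and 10 chromosomes, and 7 of them belong to family 4, the fatty acid hydroxylases, 5 of those to subfamily 4f. By mean level the most abundant were Cyp2f2, a naphthalene-metabolising enzyme known from airway, Cyp4f39, which hydroxylates the ultra-long-chain fatty acids of acylceramides, Cyp2b19, a keratinocyte epoxygenase of arachidonic acid, Cyp4b1, Cyp27a1 and the retinoic acid hydroxylase Cyp26b1. No gene among them shared over 20% of its 50-base transcript windows with another P450 gene. Between 171.4 and 317.5 FPKM of each library came from this group, with 292.7 to 309.2 FPKM in the controls. JunBΔep replicate 0 held the lowest value of the 6 libraries for 10 of the 20 genes. Relative to the control mean, the median of the 20 genes was -0.91 on the log2 scale in JunBΔep replicate 0, -0.23 in JunBΔep replicate 1 and 0.03 in JunBΔep replicate 2.

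**Figure D2:**
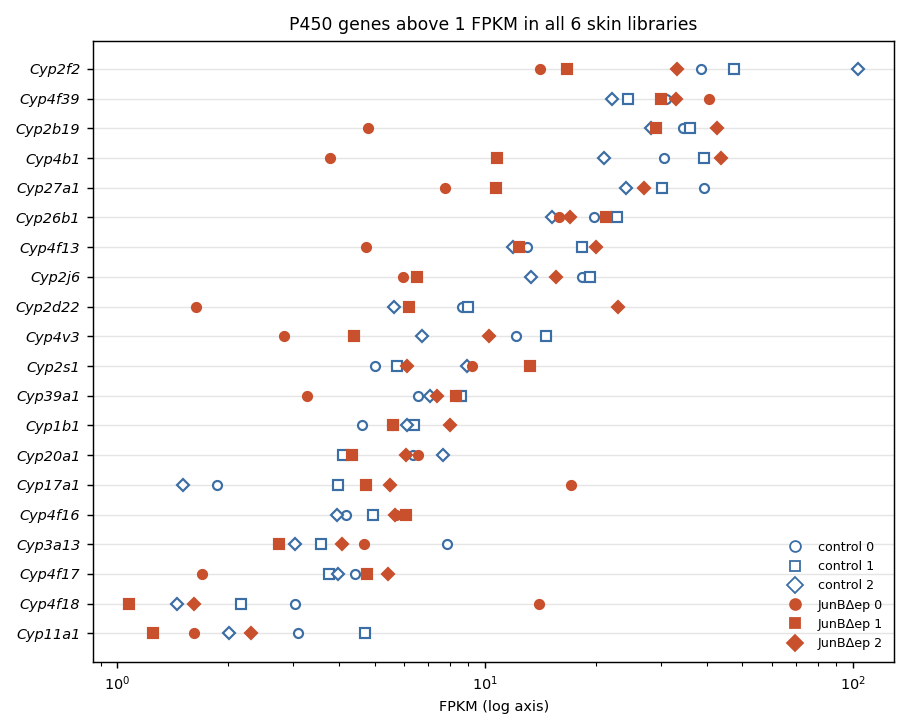
FPKM on a log axis of the 20 P450 genes above 1 FPKM in all 6 libraries, with open blue symbols for the controls and filled orange symbols for JunBΔep, circle, square and diamond for replicates 0, 1 and 2. JunBΔep replicate 0 is the lowest point in 10 of 20 rows and lies far to the right for Cyp17a1 and Cyp4f18.

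The values of several of these keratinocyte and lipid genes interleaved or lay close together. Cyp26b1 was at 19.7, 22.7 and 15.2 FPKM in the controls and at 15.9, 21.3 and 17.0 FPKM in JunBΔep skin. These values interleave, and the log2 fold change was -0.08 ± 0.21 (SE). The acylceramide gene Cyp4f39 was at 31.0, 24.4 and 22.0 FPKM in the controls and at 40.5, 30.1 and 32.9 FPKM in JunBΔep skin, where the groups overlapped through control replicate 0 alone and the log2 fold change was 0.42 ± 0.20 (SE; limma adjusted p = 0.718). Cyp4f16 was at 4.20, 4.95 and 3.94 FPKM in the controls and at 5.71, 6.10 and 5.68 FPKM in JunBΔep skin. Its groups did not overlap, with a log2 fold change of 0.39 ± 0.19 (SE; limma adjusted p = 0.720). The estradiol hydroxylase Cyp1b1 ranged from 4.64 to 8.03 FPKM over all 6 libraries, and Cyp20a1, an orphan member with no settled substrate, from 4.11 to 7.66 FPKM.

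Others were low in the library labelled JunBΔep replicate 0 and near the controls in another JunBΔep library. Cyp2b19 was at 34.4, 36.1 and 28.1 FPKM in the controls and at 4.79, 29.1 and 42.7 FPKM in JunBΔep skin, so that the lowest and the highest of the 6 values were both JunBΔep. Cyp4b1, which hydroxylates fatty acids and activates some toxic furans, was at 30.6, 39.2 and 21.1 FPKM in the controls and at 3.78, 10.8 and 43.6 FPKM in JunBΔep skin, with the same spread. Cyp2d22 ran from 1.64 FPKM in JunBΔep replicate 0 to 22.9 FPKM in JunBΔep replicate 2, on either side of the controls at 5.65 to 8.97 FPKM. Cyp4f13 and Cyp4f17, further members of subfamily 4f, were likewise lowest in JunBΔep replicate 0 (4.74 and 1.70 FPKM) and highest in JunBΔep replicate 2. Cyp2s1, an epithelial member that responds to the aryl hydrocarbon receptor, went the other way, with 5.02, 5.75 and 8.90 FPKM in the controls and 9.23, 13.3 and 6.13 FPKM in JunBΔep skin. Its groups overlapped through JunBΔep replicate 2, and it overlaps Gm17445 on the opposite strand. All 7 adipocyte markers were also lowest in JunBΔep replicate 0. The 7 keratinocyte markers differed among themselves there, with Krt15, Flg2, Lor and Krt14 at their lowest, Krt5 and Krt1 at their highest and Krt10 in between, and their sum of 12615 FPKM lay within the control range of 8060 to 13654 FPKM. The part of either cell type in these values was not tested. Cyp4b1 had one of the 3 promoters of this group that held the AP-1 motif TGANTCA. Its window from 250 bases before to 50 after the start site (RefSeq, GRCm38.p6, chr4:115647672-115647971, minus strand) is shown because JunB binds DNA as part of AP-1. The capitals mark the match, in which the N of the motif is A.

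Cyp4b1: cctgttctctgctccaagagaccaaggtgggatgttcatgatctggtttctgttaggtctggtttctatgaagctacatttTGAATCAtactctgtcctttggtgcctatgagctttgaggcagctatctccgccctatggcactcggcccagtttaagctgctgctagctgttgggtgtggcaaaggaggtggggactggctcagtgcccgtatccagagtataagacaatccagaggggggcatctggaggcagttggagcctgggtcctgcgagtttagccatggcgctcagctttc

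The other AP-1 matches of this group lay in Cyp3a13 and Cyp4f16. They are shown with 10 bases on either side (RefSeq, GRCm38.p6), in the order Cyp3a13 at chr5:137921694-137921720 and at chr5:137921609-137921635 on the minus strand and Cyp4f16 at chr17:32536379-32536405 on the plus strand.

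Cyp3a13, distal: agagtacactTGACTCAgaactgtagg
Cyp3a13, proximal: gtggctttccTGAGTCAcaaacagctg
Cyp4f16: cctttgccctTGACTCAgaggtgctgc

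TGANTCA was searched on both strands and reads the same on each. It occurred in 3 of the 16 promoters known for the 20 genes, against 2 of the 21 known for the control replicate 0 genes described below (Cyp2c70 and Cyp4f37) and 8.97% of the 27025 genes with a promoter sequence. The match of Cyp4f37 and the 10 bases on either side are the same letters as in Cyp4f16, so these may be copies. The transcript windows of Cyp4f37 were not compared with other genes. Cyp3a13, a member of the drug-metabolising subfamily 3a, was at 7.86, 3.57 and 3.04 FPKM in the controls and at 4.67, 2.74 and 4.09 FPKM in JunBΔep skin, and so overlapped throughout. The 3 genes thus had different patterns over the libraries, and a match of letters is a description and not a bound site. The N of TGANTCA admits any base. It was A in Cyp4b1 and C or G in Cyp3a13 and Cyp4f16, and matches with C or G alone were not counted.

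The comparison of JunBΔep with control skin asked which P450 genes changed with the loss of epidermal JunB. Of the 102 genes 68 had a mean of at least 0.1 FPKM and were tested together with all other genes on the log2(FPKM + 0.5) scale, on which changes of low genes come out too small. No P450 gene passed an adjusted p of 0.05 (limma, Benjamini-Hochberg over 17021 genes, lowest adjusted p = 0.430 for Cyp2f2), where 1.38% of all genes passed as lower and 0.0% as higher in JunBΔep skin. The genes that passed over the whole table numbered 0 when any control or JunBΔep replicate 1 was left out. At an unadjusted p below 0.05 there were 3 P450 genes lower (Cyp2f2, Cyp2b10 and Cyp27a1), beside a background of 6.13%, and 1 higher (Cyp17a1), beside 1.43%. The groups did not overlap for 4 lower genes (Cyp2f2, Cyp2b10, Cyp21a1 and Cyp4f14; 9.16% of all genes) and for 2 higher genes (Cyp17a1 and Cyp4f16; 5.62% of all genes). Cyp4f14 passed the filter only through control replicate 0, and its groups were apart by 0.0831 against 0.0821 FPKM, so 3 lower genes were left among the 43 that pass without their highest library. The exact permutation test (two-sided) of a single gene has 0.1 as its smallest p in this design.

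Fold changes of the 68 genes lay mostly below 0, at 58 against 10, with a median of -0.72 on the log2 scale, beside 0.03 over all genes tested. The median depended on the filter and on 1 library. Only 43 of the 68 genes pass the filter without their highest library, and for these the split was 34 below and 9 above 0 with a median of -0.33. For the 20 genes above 1 FPKM in every library it was 14 below and 6 above with a median of -0.22. Without control replicate 0, the library with the hepatocyte markers, 46 genes were tested and their median was -0.17, and without both replicates 0 it was -0.12.

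**Figure D3:**
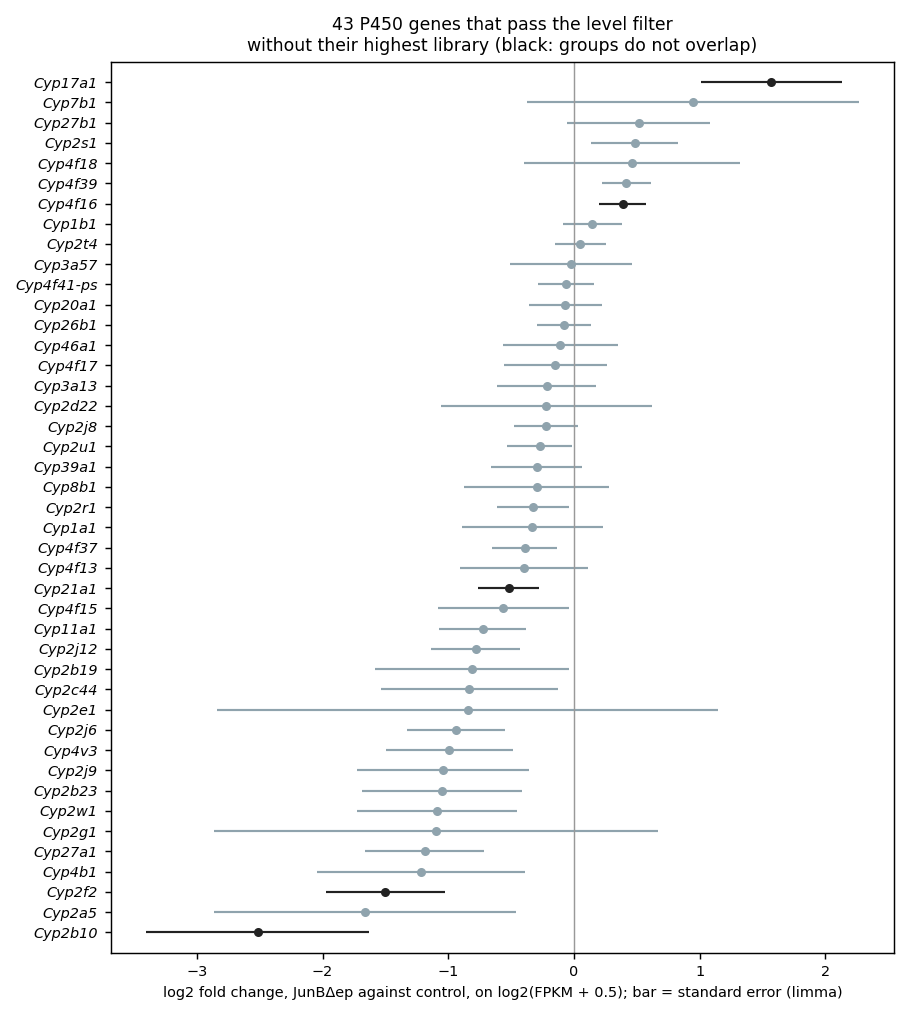
Log2 fold change of JunBΔep against control skin with its standard error (limma on log2(FPKM + 0.5)) for the 43 P450 genes that pass the level filter without their highest library, sorted by fold change. Genes whose groups do not overlap are black, and Cyp2e1, Cyp2g1 and Cyp7b1 have the widest error bars.

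The genes with the smallest unadjusted p were Cyp2f2, Cyp2b10, Cyp17a1, Cyp27a1 and Cyp2j6. Cyp2f2 was at 38.5, 47.3 and 103 FPKM in the controls and at 14.1, 16.7 and 33.3 FPKM in JunBΔep skin. Every control lay above every JunBΔep library, by 38.5 to 33.3 FPKM at the closest, and the log2 fold change was -1.50 ± 0.48 (SE). Cyp2f2 overlaps Gm15883 on the opposite strand (mm9 chromosome 7, 27904928 to 27918679). On the same chromosome lies Cyp2b10 (26682639 to 26711643), the classical phenobarbital-inducible enzyme and a target of the receptor CAR (Nr1i3). Cyp2b10 was at 14.5, 10.3 and 43.9 FPKM in the controls and at 0.524, 4.27 and 7.33 FPKM in JunBΔep skin, again without overlap, with a log2 fold change of -2.52 ± 0.89 (SE; limma adjusted p = 0.525). The highest value of both genes came from control replicate 2, which also held the secreted gland transcripts described below. The skeletal muscle markers were lower in the same 3 libraries as both genes, and the part of muscle or gland tissue in these differences was not tested. Without control replicate 2 the log2 fold changes were -1.08 for Cyp2f2 and -1.92 for Cyp2b10, and without JunBΔep replicate 0 that of Cyp2b10 was -1.66.

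Cyp27a1, the mitochondrial sterol 27-hydroxylase, was at 39.2, 30.3 and 24.1 FPKM in the controls and at 7.76, 10.7 and 27.0 FPKM in JunBΔep skin. JunBΔep replicate 2 fell within the control range and the other JunBΔep libraries below it, with a log2 fold change of -1.19 ± 0.47 (SE; limma adjusted p = 0.639). Cyp2j6 belongs to a subfamily known for epoxidising arachidonic acid. It showed the same order, with 18.3, 19.3 and 13.3 FPKM in the controls and 5.96, 6.50 and 15.6 FPKM in JunBΔep skin, and a log2 fold change of -0.94 ± 0.39 (SE; limma adjusted p = 0.669). Cyp4v3, a fatty acid hydroxylase that overlaps Klkb1 on the same strand, followed with 12.1, 14.6 and 6.71 FPKM in the controls and 2.85, 4.40 and 10.2 FPKM in JunBΔep skin. In these 3 genes JunBΔep replicate 2 overlapped the controls, and this library held 6 of the 7 adipocyte markers at their highest level. The part of fat and of the lower muscle marker levels of all JunBΔep libraries in these values was not tested. Without JunBΔep replicate 2, 11 P450 genes of 68 were lower and 1 was higher at an unadjusted p below 0.05, where 10.8% of all genes were lower and 7.54% higher in the same fit. The lowest adjusted p of a P450 gene was then 0.0748, for Cyp27a1.

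Cyp17a1 makes the androgen precursors from pregnenolone and progesterone through its 17-hydroxylase and lyase activities. It was the P450 gene with the largest positive fold change among the 43 genes that pass the filter without their highest library. Its values were 1.86, 3.98 and 1.51 FPKM in the controls and 17.1, 4.73 and 5.51 FPKM in JunBΔep skin, without overlap but with only 3.98 against 4.73 FPKM between the groups. The log2 fold change was 1.57 ± 0.56 (SE; limma adjusted p = 0.538) and 1.02 without JunBΔep replicate 0. Cyp11a1, which cuts cholesterol to pregnenolone upstream of Cyp17a1, was at 3.09, 4.71 and 2.01 FPKM in the controls and at 1.61, 1.25 and 2.30 FPKM in JunBΔep skin. It overlapped through JunBΔep replicate 2. Cyp21a1, the steroid 21-hydroxylase, stayed at 0.838, 1.18 and 0.770 FPKM in the controls and at 0.302, 0.461 and 0.758 FPKM in JunBΔep skin, where 0.770 and 0.758 FPKM were the nearest values, and it overlaps Tnxa on the opposite strand. Aromatase (Cyp19a1) and Cyp11b1 were listed at 0 in all libraries, and Cyp11b2 was above 0 only in control replicate 0. None of the 3 tested genes of this list of 6 was called, with a median log2 fold change of -0.52. Of 5 steroid-gland markers, Hsd3b1 was listed at 0 and Nr5a1 was at or below 0.0937 FPKM, whereas Star (1.04 to 1.71 FPKM) and Insl3 (2.80 to 10.4 FPKM) were present in every library and Mc2r reached 8.35 FPKM in JunBΔep replicate 2. Their sum was 5.71 to 15.8 FPKM in the controls and 5.58 to 20.5 FPKM in JunBΔep skin, and its part in the levels of these enzymes was not tested.

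**Figure D4:**
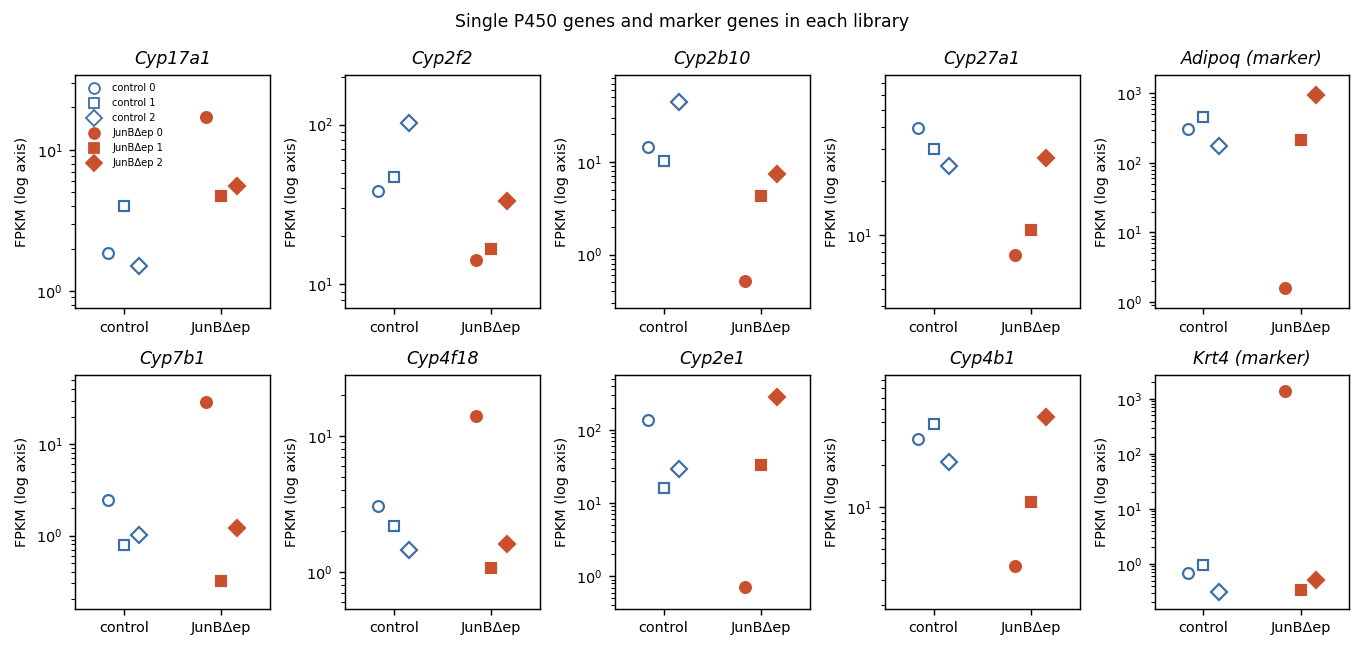
FPKM on log axes of 8 P450 genes and 2 marker genes in the 3 control and 3 JunBΔep libraries, with symbols by replicate number. Cyp7b1 and Cyp4f18 have their highest point in JunBΔep replicate 0, where the mucosal keratin Krt4 is at 1356 FPKM, and Cyp2e1 has its lowest and highest points in the libraries where the adipocyte gene Adipoq does.

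Among the cholesterol and bile acid genes (6 in the table and tested, 0 called, median log2 fold change -0.30 with and without Cyp7a1, which passed the filter only through its highest library), Cyp7b1 stood apart in 1 library. This oxysterol 7-alpha-hydroxylase was at 2.45, 0.790 and 1.01 FPKM in the controls and at 28.7, 0.316 and 1.21 FPKM in JunBΔep skin. JunBΔep replicate 0 was far above the rest, JunBΔep replicate 1 was the lowest of the 6, and the log2 fold change of 0.94 ± 1.32 (SE) became -0.60 without JunBΔep replicate 0. Cyp39a1, which acts on 24-hydroxycholesterol, was at 6.56, 8.59 and 7.06 FPKM in the controls and at 3.27, 8.34 and 7.38 FPKM in JunBΔep skin. Cyp46a1, the cholesterol 24-hydroxylase best known from neurons, ran from 0.274 to 1.93 FPKM within the JunBΔep group and from 0.728 to 1.34 FPKM within the controls. Cyp7a1, the rate-limiting enzyme of bile acid synthesis, was listed at 0 outside control replicate 0, where it had 0.601 FPKM.

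Cyp4f18 hydroxylates leukotriene B4 in mouse neutrophils, and its gene overlaps Zfp961 on the opposite strand. It was at 3.04, 2.17 and 1.45 FPKM in the controls and at 14.0, 1.08 and 1.61 FPKM in JunBΔep skin, so 1 JunBΔep library was above and another below every control. Its log2 fold change of 0.46 ± 0.86 (SE) became -0.53 without JunBΔep replicate 0. Of 5 leukocyte markers 4 were highest in that library, among them the neutrophil receptor gene Csf3r at 44.3 FPKM against 0.561 to 3.70 FPKM elsewhere, and the T-cell gene Cd3e was lowest there at 1.96 FPKM. Their sum was 647.6 FPKM there and 71.5 to 391.4 FPKM elsewhere, and the part of leukocytes in the value was not tested. Of the 20 fatty acid hydroxylases of family 4 on the list, 3 were listed at 0, 11 were tested, 0 were called and 3 had a positive fold change, with a median of -0.40. Of these, Cyp4a12b and Cyp4f14 passed the filter only through their highest library, and the median of the other 9 was -0.39.

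Cyp2e1, which oxidises ethanol, acetone and other small molecules, had the widest range of the P450 genes above 1 FPKM in at least 5 libraries. It was at 134.6, 16.1 and 29.5 FPKM in the controls and at 0.721, 33.1 and 282.0 FPKM in JunBΔep skin. The extremes of the 6 values both lay in the JunBΔep group, so the log2 fold change of -0.85 ± 1.99 (SE) describes no common direction. Adipoq, the adipocyte hormone gene, was at 310.3, 454.5 and 174.5 FPKM in the controls and at 1.62, 213.1 and 935.9 FPKM in JunBΔep skin, lowest and highest in the same libraries as Cyp2e1. Alb was at 822.8 FPKM in control replicate 0, the control with the highest Cyp2e1. The part of adipocytes and of hepatocyte transcripts in the Cyp2e1 level was not tested.

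The other functional groups held few genes and no call. Among the family 1 genes, which respond to the aryl hydrocarbon receptor, Cyp1a1 was at 2.97, 1.28 and 1.65 FPKM in the controls and at 0.793, 0.715 and 3.74 FPKM in JunBΔep skin, with the highest and the lowest values in the same group. Of the vitamin D genes, Cyp27b1, which makes the active hormone, was above 1 FPKM only in JunBΔep replicate 1, at 2.93 FPKM against 0.304 to 0.952 FPKM elsewhere. Cyp24a1, which breaks the hormone down and is induced by it, was highest in the same library at 0.196 FPKM. Cyp24a1 had 0.1155 FPKM in control replicate 2 and was too low to be tested. Vdr, the receptor of the hormone, was highest in JunBΔep replicate 1 too, at 72.9 FPKM against 22.9 to 47.7 FPKM elsewhere. Cyp2r1, a vitamin D 25-hydroxylase, went the other way. It was lowest in JunBΔep replicate 1 at 0.680 FPKM and highest in control replicate 0 at 1.88 FPKM. For the retinoic acid genes the level rested on Cyp26b1, since Cyp26c1 stayed at or below 0.0148 FPKM and Cyp26a1 reached 1.15 FPKM in control replicate 0 and at most 0.126 FPKM elsewhere. Cyp1a2 and Cyp26a1 passed the filter only through control replicate 0. The other tested genes of their lists had log2 fold changes of -0.33 ± 0.56 (SE) for Cyp1a1, 0.15 ± 0.24 for Cyp1b1 and -0.08 ± 0.21 for Cyp26b1, and the median of the 2 vitamin D genes tested was 0.09.

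Of the 29 genes above 1 FPKM in a single library, 25 were so in control replicate 0. They included the drug-metabolising Cyp3a11 at 25.3 FPKM, Cyp2c70, which makes muricholic acids, at 21.1 FPKM and the epoxygenase Cyp2c29 at 19.7 FPKM. Cyp2d26 followed at 9.72 FPKM, Cyp2d9 at 9.17 FPKM, Cyp2c50 at 8.10 FPKM, the caffeine-metabolising Cyp1a2 at 7.20 FPKM and Cyp2d10 at 5.88 FPKM. The others were between 1.04 FPKM (Cyp4f37) and 3.62 FPKM (Cyp3a25), among them Cyp8b1, the sterol 12-alpha-hydroxylase, at 1.62 FPKM. In 18 of the 25 genes the highest of the other 5 libraries was at or below 0.1 FPKM, and 10 genes, Cyp2c29 and Cyp2d9 among them, were listed at 0 in all 5. The 25 genes came to 143.0 FPKM in control replicate 0, which was 23.1% of its summed P450 level. Cyp4f37, at 1.04 FPKM in control replicate 0, was one of the genes also present elsewhere, at 0.739 and 0.560 FPKM in the other controls and at 0.440, 0.267 and 0.741 FPKM in JunBΔep skin.

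Hepatocyte markers moved with these genes. The 15 markers were at 8.94 to 822.8 FPKM in control replicate 0, all above 1 FPKM, whereas 1 to 3 of the 15 exceeded 1 FPKM in any other library. There the levels of Alb, the main serum protein, were 2.02 and 1.75 FPKM in the other controls and 0.263, 8.49 and 18.8 FPKM in JunBΔep skin, and Fga was at or below 0.0153 FPKM. Other markers of the list exceeded these Fga levels outside control replicate 0, with Fgg at 32.0 FPKM in control replicate 2 and 23.2 FPKM in JunBΔep replicate 2, Fgb at 8.52 FPKM in JunBΔep replicate 2 and Serpina3k at 4.62 FPKM in control replicate 2. JunBΔep replicate 2, with Alb at 18.8 FPKM, held Cyp3a11, Cyp2c70 and Cyp2c29 at 0. The liver-enriched receptors Nr1i2 (PXR) and Nr1i3 (CAR) were highest in control replicate 0 too, at 0.623 and 1.24 FPKM against at most 0.0168 and 0.146 FPKM elsewhere. Whether liver RNA reached this library was not tested.

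**Figure D5:**
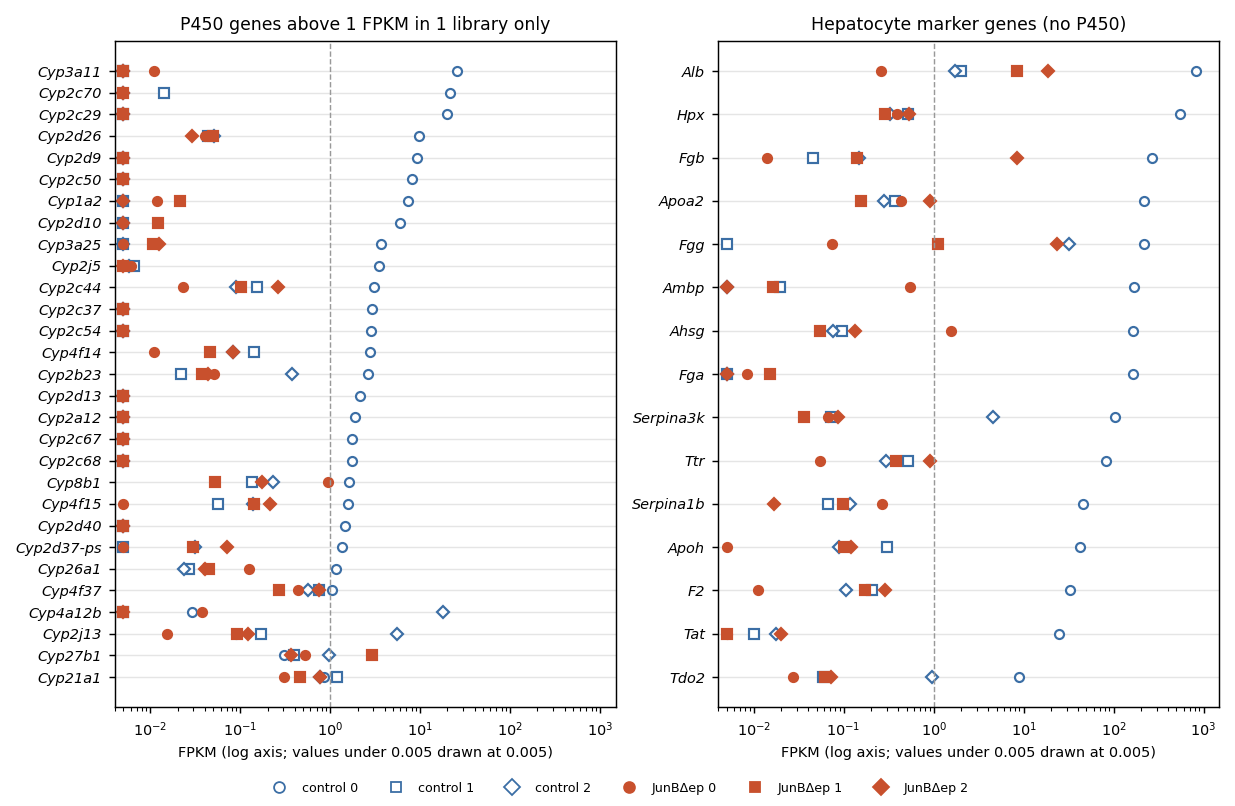
FPKM on a log axis of the 29 P450 genes above 1 FPKM in a single library (left; dashed line at 1 FPKM) and of 15 hepatocyte marker genes (right), with symbols by library and values under 0.005 FPKM drawn at 0.005. The open blue circles of control replicate 0 lie to the right of the line for 25 P450 genes and for all 15 markers.

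Of these 25 genes 17 belong to family 2 (50 of all 102 P450 genes), with 8 from subfamily 2c (16 of 102) and 6 from subfamily 2d (10 of 102). On chromosome 19 lie 9 of them (18 of 102), those 8 of subfamily 2c and Cyp26a1, and on chromosome 15 lie 5 (11 of 102), all of subfamily 2d (mm9). Members of these subfamilies can be near copies. Of the 23 genes that could be compared, 9 share over 20% of their 50-base transcript windows with another P450 gene, up to 53.5% for Cyp2c67 with Cyp2c40, so the level of a single member is uncertain where reads could be split between copies. The promoters of the most abundant of them are shown because they hold several of the motifs counted below. Promoter windows were found in RefSeq (GRCm38.p6) for 75 of the 102 genes and for 21 of the 25. Cyp3a11 is at chr5:145879805-145880104 and Cyp2c70 at chr19:40187237-40187536, both on the minus strand, and capitals mark matches to CAAAGTNCA (bound by HNF4-type receptors), TATAAA and TGANTCA, some read on the opposite strand.

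Cyp3a11: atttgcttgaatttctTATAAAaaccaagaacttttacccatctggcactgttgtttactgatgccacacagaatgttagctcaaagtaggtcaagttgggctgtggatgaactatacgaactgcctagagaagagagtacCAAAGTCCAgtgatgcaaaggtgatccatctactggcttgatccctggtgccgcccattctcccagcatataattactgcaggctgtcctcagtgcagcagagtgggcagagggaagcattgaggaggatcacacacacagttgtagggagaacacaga
Cyp2c70: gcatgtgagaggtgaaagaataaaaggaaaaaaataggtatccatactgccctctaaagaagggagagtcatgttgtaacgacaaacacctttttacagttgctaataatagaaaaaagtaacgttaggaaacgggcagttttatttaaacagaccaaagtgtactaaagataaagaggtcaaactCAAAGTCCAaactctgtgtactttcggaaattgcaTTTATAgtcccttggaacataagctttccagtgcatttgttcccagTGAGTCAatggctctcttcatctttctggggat

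CAAAGTNCA occurred in 9 of the 21 promoters known for the control replicate 0 genes and in 0 of the 16 of the genes above 1 FPKM in all libraries, beside 1.64% of all 27025 genes and 1.41% of all 32851 windows of that length. Of these 9 genes 5 are members of subfamily 2c and were counted singly. The matches of 5 more of the 9 genes show how the letters recur, with 10 bases on either side (RefSeq, GRCm38.p6). Cyp2c37 is at chr19:39992351-39992379 and Cyp2c50 at chr19:40089608-40089636 on the plus strand, and Cyp2c68 at chr19:39741160-39741188, Cyp2d26 at chr15:82794285-82794313 and Cyp8b1 at chr9:121916354-121916382 on the minus strand.

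Cyp2c37: aagaatattcCAAAGTGCAatcaattgat
Cyp2c50: aagaatgttcCAAAGTGCAatggattgat
Cyp2c68: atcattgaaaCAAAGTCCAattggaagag
Cyp2d26: aggcagagaaCAAAGTGCAgccttcccct
Cyp8b1: agcctctgagCAAAGTCCAagggcaggaa

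In Cyp2c37 and Cyp2c50 the match begins at -63 and -61 from the start site and in Cyp2d26 at -58. Cyp8b1 has 2 matches, at -242 and at -67, of which the one at -67 is shown. The flanks of Cyp2c37 and Cyp2c50 are nearly alike, so these copies are not independent sequences. TATAAA occurred in 13 of the 21 promoters and in 1 of the 16 (Cyp26b1), beside 15.7% of all genes. TTGCNNAA, bound by C/EBP factors, occurred in 5 of the 21 and 3 of the 16 (12.2% of all genes), GTTAAT, part of an HNF1 site, in 3 and 0 (8.24%), and GCGTG, the core bound by the aryl hydrocarbon receptor, in 2 and 5 (35.2%). All motifs were read on both strands, the overlap of different motifs was allowed, and neither the HNF1 palindrome nor the DR1 repeat was found in either group. The motifs were chosen after the levels were known.

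Low P450 genes also had their highest level in single libraries. The epoxygenase Cyp2c65 was at 0.783 FPKM in JunBΔep replicate 0, the library with the mucosal markers, and at most 0.0124 FPKM elsewhere, and Cyp2c66 (0.178 FPKM) and Cyp4f40 (0.354 FPKM) were highest there too. Cyp2c38 (0.409 FPKM) was listed at 0 outside control replicate 0, and the pseudogene Cyp4b1-ps2 was at 0.775 FPKM there and at most 0.0357 FPKM elsewhere. Of the 31 genes above 0 and never above 1 FPKM, 7 were tested and 0 were called.

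Further genes were above 1 FPKM in 2 to 5 libraries. Cyp2j9 was at 8.50, 8.30 and 5.82 FPKM in the controls and at 0.954, 3.47 and 9.47 FPKM in JunBΔep skin, lowest in replicate 0 and highest in replicate 2 of the same group. Cyp2w1, an enzyme known from developing gut and tumours, was at 5.25, 1.00 and 2.91 FPKM in the controls and at 0.266, 1.09 and 2.01 FPKM in JunBΔep skin, and its groups overlapped. Cyp2j12 was at 3.73, 1.85 and 1.57 FPKM in the controls and at 0.954, 0.819 and 1.60 FPKM in JunBΔep skin, where 1.57 and 1.60 FPKM made the overlap (log2 fold change -0.78 ± 0.36, SE; limma adjusted p = 0.699). Cyp3a57 ranged from 0.450 to 2.71 FPKM, both within the JunBΔep group.

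The remaining single-library levels had other companions. In control replicate 2, Cyp4a12b, which hydroxylates arachidonic acid, was at 17.8 FPKM and at most 0.0373 FPKM elsewhere. Nearly identical Cyp4a12a, with which it shares 49.5% of its windows, was at 0.00873 FPKM there. Cyp2j13 was at 5.46 FPKM in the same library and at most 0.171 FPKM elsewhere. Cyp2a5, the coumarin hydroxylase, was above 1 FPKM in 2 libraries, at 16.7 FPKM in control replicate 2 and 1.32 FPKM in JunBΔep replicate 0, and it shares 31.0% of its windows with Cyp2a4. A list of 10 secreted gland proteins, drawn up after values were seen, was highest in control replicate 2 for all 10 genes, with a sum of 44120 FPKM against 0.354 to 12.2 FPKM elsewhere, and its part in these P450 levels was not tested. In control replicate 1, Cyp2g1, an enzyme known from olfactory mucosa, was at 37.9 FPKM, against 2.43 FPKM in JunBΔep replicate 0 and at most 0.168 FPKM elsewhere. Of 5 olfactory and airway markers, Bpifa1 was listed at 0 in all libraries and none of the other 4 was highest in control replicate 1. Omp, the defining gene of olfactory neurons, was at 0.392 FPKM there, the lowest of the 6 libraries, the airway gene Scgb1a1 was at 21.1 FPKM, below 22.1 FPKM in JunBΔep replicate 2, and the sum of the list was 21.7 FPKM against 9.20 to 24.5 FPKM elsewhere. The part of such tissue in the Cyp2g1 level was not tested.

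No gene of the list of partner enzymes and receptors passed the test. The list also holds the P450 genes Cyp51, Tbxas1 (thromboxane synthase, 1.10 to 4.01 FPKM) and Ptgis (prostacyclin synthase, at most 2.05 FPKM), and the groups overlapped for Tbxas1 and Ptgis. Of its 25 genes in the table all were tested and 0 were called (adjusted or unadjusted p below 0.05), with 5 positive and 20 negative fold changes and a median of -0.23. Por, the electron donor of the microsomal P450 enzymes, was at 52.2, 57.3 and 44.5 FPKM in the controls and at 52.5, 41.5 and 94.2 FPKM in JunBΔep skin, so that JunBΔep replicate 2 was highest and the rest interleaved. Fdx1, the mitochondrial donor, was at 25.5 to 36.5 FPKM in the controls and at 18.6 to 30.6 FPKM in JunBΔep skin. The aryl hydrocarbon receptor gene Ahr was at 10.9, 7.51 and 7.03 FPKM in the controls and at 5.81, 3.49 and 6.79 FPKM in JunBΔep skin. Its groups did not overlap, by 7.03 against 6.79 FPKM (log2 fold change -0.64 ± 0.31, SE; limma adjusted p = 0.720). Ppara, the fatty acid receptor that drives subfamily 4a, was at 3.10, 2.35 and 2.49 FPKM in the controls and at 0.450, 1.33 and 2.29 FPKM in JunBΔep skin. Its groups were also without overlap, by 2.35 against 2.29 FPKM (log2 fold change -0.89 ± 0.42, SE; limma adjusted p = 0.716). Ahr and Ppara were the 2 of the 25 genes that were lower without overlap, beside 9.16% of all genes. Tiparp, a target of the aryl hydrocarbon receptor, was at 36.6 FPKM in JunBΔep replicate 0 and at 4.64 to 6.61 FPKM in the other 5 libraries, and Cyp51, the lanosterol demethylase of cholesterol synthesis, had 72.3 FPKM there against 26.5 to 44.6 FPKM elsewhere. The target genes Cyp1a1 and Cyp1b1 were not highest in that library.

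The sample names fall into a lower and a higher number series, and each series held both genotypes. In the lower series JunBΔep replicate 0 was set against control replicates 0 and 1, and in the higher series JunBΔep replicates 1 and 2 against control replicate 2. Of the 68 genes 16 were lower in JunBΔep skin in both series (23.7% of all genes tested) and 8 were higher in both (28.7% of all genes tested). Of the 43 genes that pass the filter without their highest library, 12 were lower and 7 higher in both. Cyp2f2 differed by -1.56 and -2.10 on the log2 scale, Cyp2b10 by -3.63 and -2.86, and Cyp17a1 by 2.44 and 1.48. The groups of these genes did not overlap. Any split that holds both genotypes then gives a shared direction, so the sign in both series adds no evidence for them. Cyp27a1 (-2.08 and -0.49) and Cyp2j6 (-1.58 and -0.38) had unequal differences of 1 sign. Cyp4f39 differed by 0.55 and 0.51. The sign changed between the series for Cyp2e1 (-5.28 and 1.70), Cyp7b1 (3.91 and -0.35), Cyp4f18 (2.24 and -0.10) and Cyp2b19 (-2.76 and 0.32). What the number series stand for is not given in the labels.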

How the data were processed

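Poly(A) RNA of whole skin from 3 control and 3 JunBΔep mice had been sequenced as strand-specific libraries. The authors aligned the reads to mm9 with TopHat 2.0.10 and Bowtie 1.0.0 in the nextpresso pipeline and deposited FPKM values per gene. Cufflinks and SAMtools 0.1.19 are named in the submitters' processing notes. The sources used here do not give the scaling between libraries, nor whether counting used the strand. DESeq2, the test of the authors, needs read counts, which were not analysed here.

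FPKM values were used as deposited and transformed to log2(FPKM + 0.5). Genes averaging at least 0.1 FPKM (17021) were compared with limma 3.58.1 (R 4.3.3, intensity trend, no block, two-sided, Benjamini-Hochberg, threshold 0.05), and only P450, partner and marker rows are printed. The procedure was also run on simulated data, from which no error rate or power is given here. Depth is unknown. Among genes below 0.15 FPKM, 14.2% to 17.4% shared 1 ratio to control replicate 0, by which the scaling totals were 0.955 to 1.14 of it. The replicate numbers did not pair the libraries, since same-numbered deviations correlated at 0.12, -0.23 and -0.43. The p-values measure the spread between these mice.

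Named genes were the P450 genes above 1 FPKM in all or in exactly 1 library, the 5 with the smallest unadjusted p, genes of the functional, partner and marker lists, and Junb. Values are printed for only some of them, and Cyp2e1, Cyp2a5, Cyp2c38, Cyp2c65, Cyp2c66, Cyp2g1, Cyp2j9, Cyp2j12, Cyp2w1, Cyp3a57, Cyp4b1-ps2, Cyp2a4, Cyp2c40 and, among the genes listed at 0, Cyp2a22, Cyp2c39, Cyp2c53-ps, Cyp3a41a and Cyp3a41b were named after their values were seen. The members and lists were chosen with earlier results of these data known. Gene positions are GENCODE vM1 (mm9) and promoters RefSeq (GRCm38.p6). Windows of 50 bases shared between transcripts were counted to find near copies. Alternatives were other pseudocounts, filters, scalings, limma settings, blocks and level limits, each library left out in turn and, added after the data were seen, both replicates 0 left out. Python 3.11.15, pandas 2.3.3 and matplotlib 3.10.9 made tables and figures.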

Additional observations from a re-analysis of the deposited data

How the results depend on the processing

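No P450, partner or functional-list gene was called at an adjusted p of 0.05 under any alternative that was run. The lowest adjusted p of a P450 gene was 0.0661 (Cyp2b10) with the number series as a block, 0.0748 (Cyp27a1) without JunBΔep replicate 2 and 0.161 to 0.876 in the other fits. The 235 genes called over the whole table became 0 with a replicate block, 0 with the number series as a block, 0 to 254 with a library left out (0 without any control or JunBΔep replicate 1, 135 without JunBΔep replicate 0, 254 without JunBΔep replicate 2) and 0 without both replicates 0. The replicate block changed no call of a P450 gene, and the cause of the lost calls was not tested. The median log2 fold change of the P450 genes tested, -0.72, was -0.31 with no filter (92 genes), -0.88 to -0.17 with a library left out and -0.12 without both replicates 0. The sign turned for Cyp2e1 (0.02 without control replicate 0, 1.26 without JunBΔep replicate 0 and 2.13 without both; -2.67 to 1.26 with 1 library left out), Cyp7b1 (-0.60 without JunBΔep replicate 0, -0.24 without both; up to 1.98), Cyp4f18 (-0.53 and -0.32; up to 1.07), Cyp2b19 (0.11 and 0.14; down to -1.41), Cyp26b1 (0.005 and 0.03, and 0.049 without control replicate 1; down to -0.24) and Cyp1b1 (-0.016 without JunBΔep replicate 2; up to 0.23). The 20 and 29 genes above 1 FPKM in all and in 1 library were 15 and 22 at a limit of 2 FPKM and 26 and 31 at 0.5 FPKM. The control replicate 0 group of 25 genes was 17 at 2 FPKM.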
